A study of Homo sapiens with 8 samples.

Results

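TXNIP, its arrestin-domain relatives ARRDC1 to ARRDC4, and the transcription factors MLXIP (MondoA) and MLX were followed in Kyse510 cells, an established line of human esophageal squamous cell carcinoma (ESCC), after inhibition or knockdown of the histone enzymes LSD1 and G9a. The 7 genes were taken by their symbols from 34164 genes listed in either of 2 expression tables, and all 7 were listed in both. They were chosen by their FPKM values in these same libraries, each treated library against its own control and the combination against each single inhibitor, so every value is given as a description, with no test. Gene expression was measured by RNA-seq in 8 libraries, with 1 library in each of 8 groups. In the inhibitor experiment, cells received vehicle (titled as a DMSO control), 7 µM SP2509, 7 µM UNC0642, or both compounds for 2 days. SP2509 inhibits LSD1, the demethylase encoded by KDM1A, and UNC0642 inhibits the histone methyltransferase G9a, encoded by EHMT2. The dose of each compound in the combination was not stated separately. In the knockdown experiment, a line carrying a doxycycline (Dox) inducible short hairpin against LSD1 (shLSD1) and a line carrying one against G9a (shG9a) were each profiled uninduced and after 2 days of Dox. Each stable line had been selected with puromycin for 14 days, each carried a single hairpin, and how many clones made up a line was not stated. No library with Dox and a nonsilencing hairpin was analysed here, so the hairpin and Dox itself cannot be told apart.

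TXNIP (thioredoxin-interacting protein) and the ARRDC proteins form the alpha-arrestin family, adaptors that bind membrane proteins and recruit ubiquitin ligases of the NEDD4 family to them. TXNIP also binds reduced thioredoxin and promotes the removal of the glucose transporter GLUT1 from the cell surface. MondoA pairs with MLX, enters the nucleus when glucose 6-phosphate accumulates, and binds carbohydrate response elements, which consist of paired E-box-like elements with 5 bases between them. TXNIP and ARRDC4 are textbook targets of MondoA and of its relative MLXIPL (ChREBP). In the coordinates of the files (GRCh38) the protein-coding genes lie as follows: TXNIP at chr1:145992435-145996600 (minus strand), ARRDC1 at chr9:137605654-137615360 (plus strand), ARRDC2 at chr19:18001132-18014102 (plus strand), ARRDC3 at chr5:91368724-91383359 (minus strand), ARRDC4 at chr15:97960698-97973838 (plus strand), MLX at chr17:42567068-42573239 (plus strand) and MLXIP at chr12:122078722-122147347 (plus strand).

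The stretches before the RefSeq start sites of TXNIP, ARRDC4, MLX and ARRDC3 are shown because they carry, or lack, the letters of such elements. Each runs from 250 to 43 bases before the start, 5′ to 3′ on the strand of the gene, in GRCh38.p14. Capitals mark the motif CACGTG (the canonical E-box) or a paired motif of 2 copies of CACGNG with 5 bases between them. These motifs and CACGAG were searched on both strands, and CACGAG can form part of the pair.
TXNIP, chr1:145996622-145996829, minus strand: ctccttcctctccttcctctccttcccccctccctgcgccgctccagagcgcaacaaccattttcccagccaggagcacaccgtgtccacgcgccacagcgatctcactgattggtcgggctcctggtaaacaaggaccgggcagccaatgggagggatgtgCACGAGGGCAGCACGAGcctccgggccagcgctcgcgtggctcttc
ARRDC4, chr15:97960453-97960660, plus strand: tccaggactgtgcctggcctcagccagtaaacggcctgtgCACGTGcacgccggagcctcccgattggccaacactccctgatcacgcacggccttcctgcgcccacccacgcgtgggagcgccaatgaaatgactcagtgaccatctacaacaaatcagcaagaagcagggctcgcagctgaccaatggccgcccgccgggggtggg
MLX, chr17:42566850-42567057, plus strand: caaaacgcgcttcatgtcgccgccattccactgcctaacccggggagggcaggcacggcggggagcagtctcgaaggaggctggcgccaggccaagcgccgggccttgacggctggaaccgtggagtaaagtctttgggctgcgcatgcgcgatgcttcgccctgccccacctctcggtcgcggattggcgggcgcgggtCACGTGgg
ARRDC3, chr5:91383360-91383567, minus strand: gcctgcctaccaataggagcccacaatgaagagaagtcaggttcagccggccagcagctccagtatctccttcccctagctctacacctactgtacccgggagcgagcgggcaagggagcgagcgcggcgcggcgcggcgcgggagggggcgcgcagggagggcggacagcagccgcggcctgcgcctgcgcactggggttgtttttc
In the 250 bases before each start, TXNIP held the paired motif from 88 to 72 bases upstream, built from 2 copies of CACGAG. The paired motif was found in 16 of 35116 RefSeq promoters of that length (0.0456%), whereas CACGAG alone was found in 5.58%. ARRDC4 held a CACGTG from 210 to 205 bases upstream and MLX held a CACGTG from 50 to 45 bases upstream, a motif present in 6.34% of promoters. The windows of ARRDC1, ARRDC2, ARRDC3 and MLXIP, and the second start site of TXNIP, held no match to these motifs. A match to the letters is not evidence of binding.

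**Figure D1:**
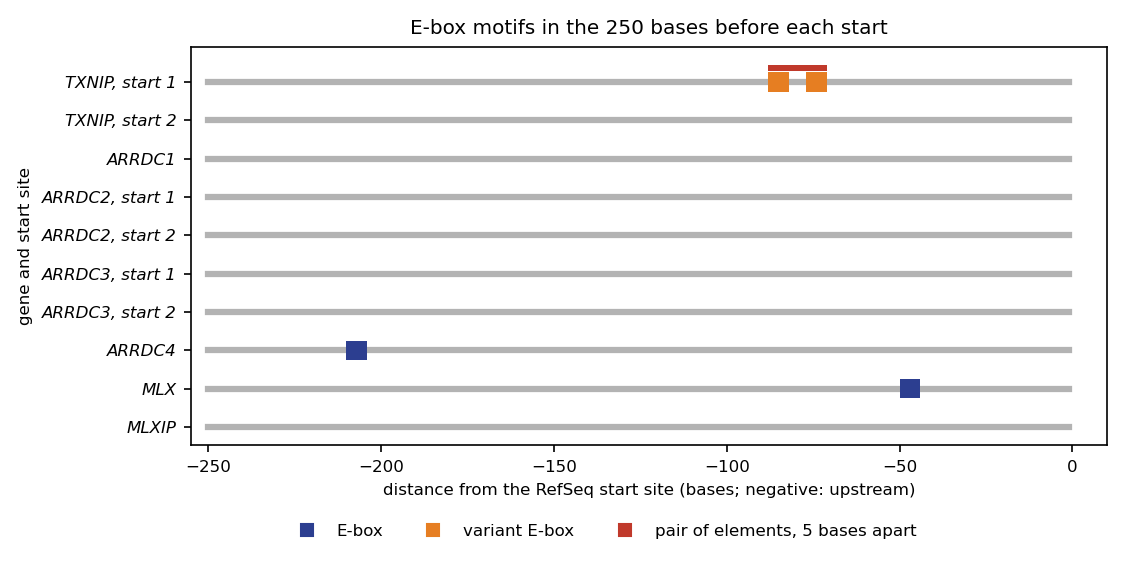
Position of the motifs relative to each RefSeq start site, in bases (x axis, negative values upstream), for every start site of the 7 genes (y axis). Blue boxes mark the E-box, orange boxes the variant E-box, and the red bar the pair of elements 5 bases apart. TXNIP alone among the 7 genes carried the pair, and ARRDC4 and MLX each carried a single E-box.

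Expression was given as FPKM (fragments per kilobase of exon length, scaled to a total for the library). The depth recovered from these values was 15662035 to 17889466 reads per library. Of 8 squamous epithelial markers, 5 were at 1 FPKM or more in every library, with KRT5 at 74.6 to 734 FPKM, and the 8 summed to 225 to 1026 FPKM. PKP1 reached 1 FPKM in 1 library, KRT6A in 4 and SOX2 in 6. Of 6 markers of other cell types, COL1A1 was at 2.92 to 5.36 FPKM and the others were under 1 FPKM in all libraries. KDM1A was at 26.0 FPKM in the uninduced shLSD1 cells and 6.29 FPKM with Dox, and EHMT2 was at 7.85 FPKM in the uninduced shG9a cells and 4.76 FPKM with Dox. The combination library had 5.38 FPKM of EHMT2 against 11.1 FPKM in vehicle. For each comparison, genes with at least 1 FPKM in at least 1 of the 2 libraries were kept, the fold change was taken on FPKM plus 1, and a change of at least 1.3-fold, equal to 0.38 in log2, was called. Plain ratios of FPKM are given with 95% intervals that cover counting error only, since no group had a replicate.

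TXNIP was low in all 3 control libraries and rose in 4 of the 5 treated libraries. Its level was 1.18 FPKM in vehicle, 1.98 FPKM with SP2509, 0.848 FPKM with UNC0642 and 30.3 FPKM with both inhibitors. In the knockdown table it was 1.15 FPKM in the uninduced shLSD1 cells and 7.18 FPKM with Dox, and 1.12 FPKM in the uninduced shG9a cells and 48.9 FPKM with Dox. The controls rested on 67, 74 and 67 reads, against 1853 reads with both inhibitors and 3071 reads in shG9a cells with Dox. Set across the 2 tables, which were normalised separately, the levels ran from UNC0642 through the uninduced shG9a cells, the uninduced shLSD1 cells and vehicle to SP2509, then shLSD1 with Dox, the combination and shG9a with Dox. The counting intervals of the lowest 4 overlapped one another, and those of every later neighbouring pair did not. In bulk RNA, a higher level in each cell and a larger share of cells expressing the gene cannot be told apart.

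The combination raised TXNIP 25.7-fold over vehicle (95% interval 20.1 to 33.3). The increase was 15.3-fold over SP2509 alone (12.8 to 18.4) and 35.7-fold over UNC0642 alone (27.3 to 47.6). SP2509 alone gave a ratio of 1.68 (1.24 to 2.29). UNC0642 alone gave a ratio of 0.719, with an interval of 0.494 to 1.04 that includes no change. That value was not called, although with a pseudocount of 0.1 FPKM it passed the fold threshold as a decrease of 0.43 log2 units. Dox raised TXNIP 6.25-fold in shLSD1 cells (4.88 to 8.10) and 43.8-fold in shG9a cells (34.4 to 56.6). By the change in log2(FPKM + 1), TXNIP stood 1st of 13080 genes tested in shG9a cells, 42nd of 12970 in shLSD1 cells, 35th of 13907 for the combination against vehicle, 27th of 13658 for the combination against SP2509 and 3rd of 13637 for the combination against UNC0642.

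**Figure D2:**
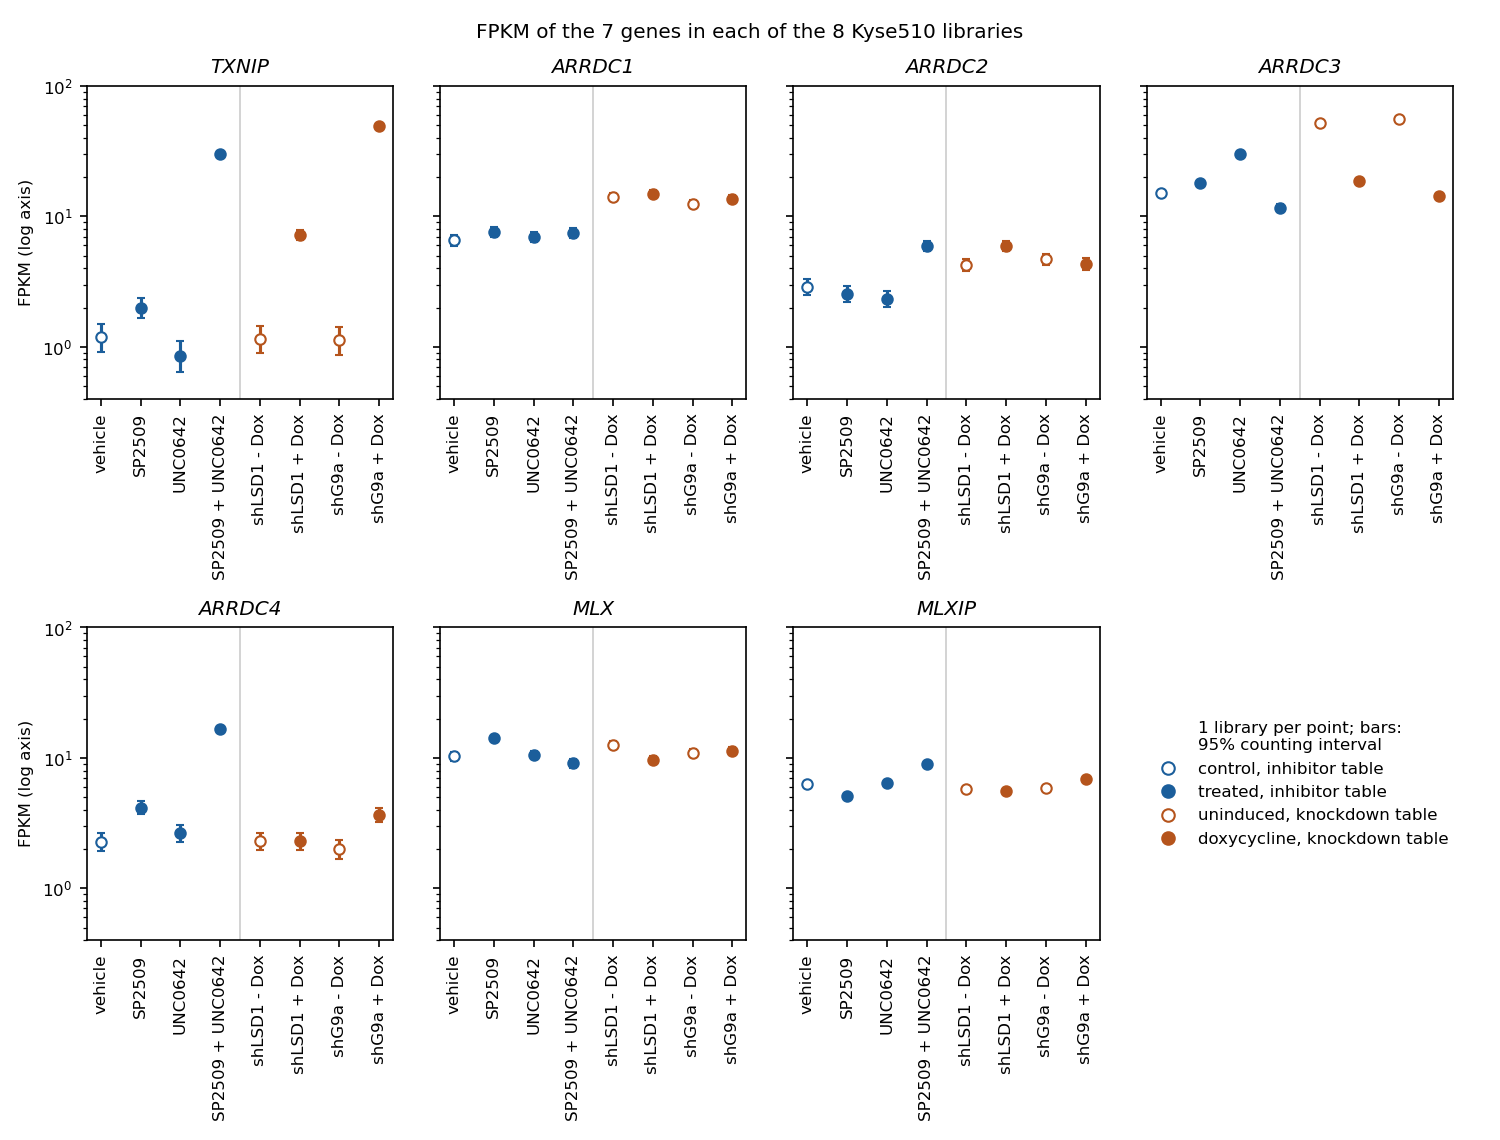
FPKM on a log axis for each of the 7 genes in the 8 libraries (x axis), with blue for the inhibitor table and orange for the knockdown table. Each point is 1 library, open points are controls, and bars are 95% counting intervals. TXNIP stood between 1.12 and 1.18 FPKM in the 3 controls and reached 30.3 and 48.9 FPKM in the 2 highest libraries, while ARRDC3 fell from 52.1 and 55.7 FPKM in the uninduced lines to 18.8 and 14.3 FPKM with Dox.

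ARRDC4, an alpha-arrestin close to TXNIP that has also been linked to glucose uptake, rose with TXNIP in the combination but not in every library where TXNIP rose. It was at 2.27 FPKM in vehicle, 4.14 FPKM with SP2509, 2.64 FPKM with UNC0642 and 16.7 FPKM with both inhibitors. It was at 2.30 and 2.29 FPKM in shLSD1 cells without and with Dox, and at 1.99 and 3.66 FPKM in shG9a cells. The ratio to vehicle was 7.33 for the combination (6.16 to 8.78) and 1.82 for SP2509 (1.49 to 2.23), and 1.16 for UNC0642 (0.930 to 1.45), which was not called. In the shG9a line the ratio was 1.84 (1.49 to 2.28), and in shLSD1 cells it was 0.996 (0.797 to 1.24). The shLSD1 library with Dox thus held a called increase of TXNIP beside an ARRDC4 level whose interval includes no change.

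ARRDC3, an adaptor for the beta-2 adrenergic receptor and integrin beta-4, fell in both lines with Dox, where TXNIP rose. It was at 15.1 FPKM in vehicle, 18.1 FPKM with SP2509, 30.3 FPKM with UNC0642 and 11.6 FPKM with both inhibitors. It was at 52.1 FPKM in the uninduced shLSD1 cells and 18.8 FPKM with Dox, and at 55.7 FPKM in the uninduced shG9a cells and 14.3 FPKM with Dox. Dox lowered ARRDC3 2.77-fold in shLSD1 cells (ratio 0.361, interval 0.341 to 0.382) and 3.90-fold in shG9a cells (ratio 0.256, interval 0.241 to 0.273). Among the decreases it stood 196th of 12970 and 190th of 13080 genes, respectively. UNC0642 raised it to 2.01 times the vehicle level (1.87 to 2.15), and the combination was 2.62-fold below UNC0642 alone. Against vehicle the combination gave a ratio of 0.767 (0.703 to 0.836), a log2 change of -0.36 that lay just short of the threshold and passed it at -0.39 once ratios were centred on the median gene and at -0.38 with a pseudocount of 0.1 FPKM.

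ARRDC2, a less studied member of the family, rose with both inhibitors. Its levels were 2.89, 2.54, 2.34 and 5.93 FPKM with vehicle, SP2509, UNC0642 and both, a 2.05-fold increase for the combination over vehicle (1.74 to 2.42). In the shLSD1 line it was 4.28 FPKM uninduced and 5.94 FPKM with Dox, a log2 change of 0.40 just inside the threshold that fell to 0.28 once centred and to 0.34 against the mean of both uninduced lines. In the shG9a line it was 4.68 and 4.32 FPKM without and with Dox. ARRDC1, which recruits the ESCRT machinery for budding of vesicles at the plasma membrane, was not called in any comparison. Its levels were 6.55 to 7.6 FPKM across the 4 inhibitor libraries and 12.5 to 14.9 FPKM across the 4 knockdown libraries.

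The balance among the arrestin-domain genes shifted in the same libraries. TXNIP made up 4.21% of the summed FPKM of the 5 genes in vehicle, 5.77% with SP2509 and 1.97% with UNC0642, but 42.1% with both inhibitors. It made up 1.56% and 14.6% of the sum in shLSD1 cells without and with Dox, and 1.47% and 57.7% in shG9a cells. The share of ARRDC3 was 70.5% and 73.3% in the uninduced lines and 38.3% and 16.8% with Dox, and it was 54.0% in vehicle and 16.1% with both inhibitors. The shares belong to 1 sum, so a rise of TXNIP by itself lowers the share of the other genes. The level of ARRDC3 was 15.1 FPKM in vehicle and 11.6 FPKM with both inhibitors, a change just short of the threshold. The summed level itself was 28 FPKM in vehicle and 71.9 FPKM with both inhibitors, and 76.0 and 84.8 FPKM in shG9a cells without and with Dox. In shLSD1 cells it was lower with Dox, at 49.1 FPKM against 73.9 FPKM uninduced. With SP2509 and UNC0642 alone it was 34.4 and 43.1 FPKM.

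MLXIP (MondoA) and its partner MLX moved less than TXNIP with the combination and in both lines with Dox, whereas with SP2509 the log2 changes of MLX and TXNIP were 0.43 and 0.45. MLXIP was at 6.31 FPKM in vehicle, 5.13 FPKM with SP2509, 6.42 FPKM with UNC0642 and 8.95 FPKM with both, a 1.42-fold increase over vehicle (1.32 to 1.52). It was at 5.82 and 5.56 FPKM in shLSD1 cells and at 5.85 and 6.87 FPKM in shG9a cells, and neither change was called. MLX was at 10.3 FPKM in vehicle, 14.2 FPKM with SP2509, 10.6 FPKM with UNC0642 and 9.11 FPKM with both inhibitors. SP2509 raised MLX 1.38-fold over vehicle (1.25 to 1.52), and the combination was 1.56-fold below SP2509. With Dox it went from 12.6 to 9.66 FPKM in shLSD1 cells and from 10.9 to 11.2 FPKM in shG9a cells. The shLSD1 change of -0.36 log2 units lay just outside the threshold and was -0.47 once centred. MLXIPL (ChREBP), the relative of MLXIP, was at 7.17 FPKM in the uninduced shG9a cells and 3.91 FPKM with Dox, a called decrease of 1.83-fold, and was not called in the other comparisons. The remaining arrestin-domain gene, ARRDC5, had 0 to 2 reads in every library, under the 3 reads taken as the limit of detection.

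The number of the 7 genes called in each comparison is set beside the share of all tested genes called. SP2509 against vehicle called 3 up (TXNIP, ARRDC4 and MLX) and 0 down, where 21.0% of all genes were called up and 39.9% down. UNC0642 against vehicle called 1 up (ARRDC3) and 0 down, beside 18.2% and 16.9%. The combination called 4 up (TXNIP, ARRDC2, ARRDC4 and MLXIP) and 0 down against vehicle, beside 31.4% and 31.7%. Those 4 genes were called up against each single inhibitor too, beside 41.8% of all genes up and 24.8% down against SP2509, and 27.7% up and 27.1% down against UNC0642. ARRDC3 was called down against both single inhibitors and MLX against SP2509. The 3 comparisons of the combination share its library, and those against vehicle share the vehicle library. In the shLSD1 line Dox called 2 up (TXNIP and ARRDC2) and 1 down (ARRDC3), beside 24.8% and 12.3%. In the shG9a line it called 2 up (TXNIP and ARRDC4) and 1 down (ARRDC3), beside 32.9% and 17.6%. Since the 7 genes were chosen by these values, nothing is read from the counts themselves. Between the 2 uninduced lines 0 of the 7 genes were called at the same fold threshold, where 3.04% of all genes were higher and 4.51% lower in shG9a cells.

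**Figure D3:**
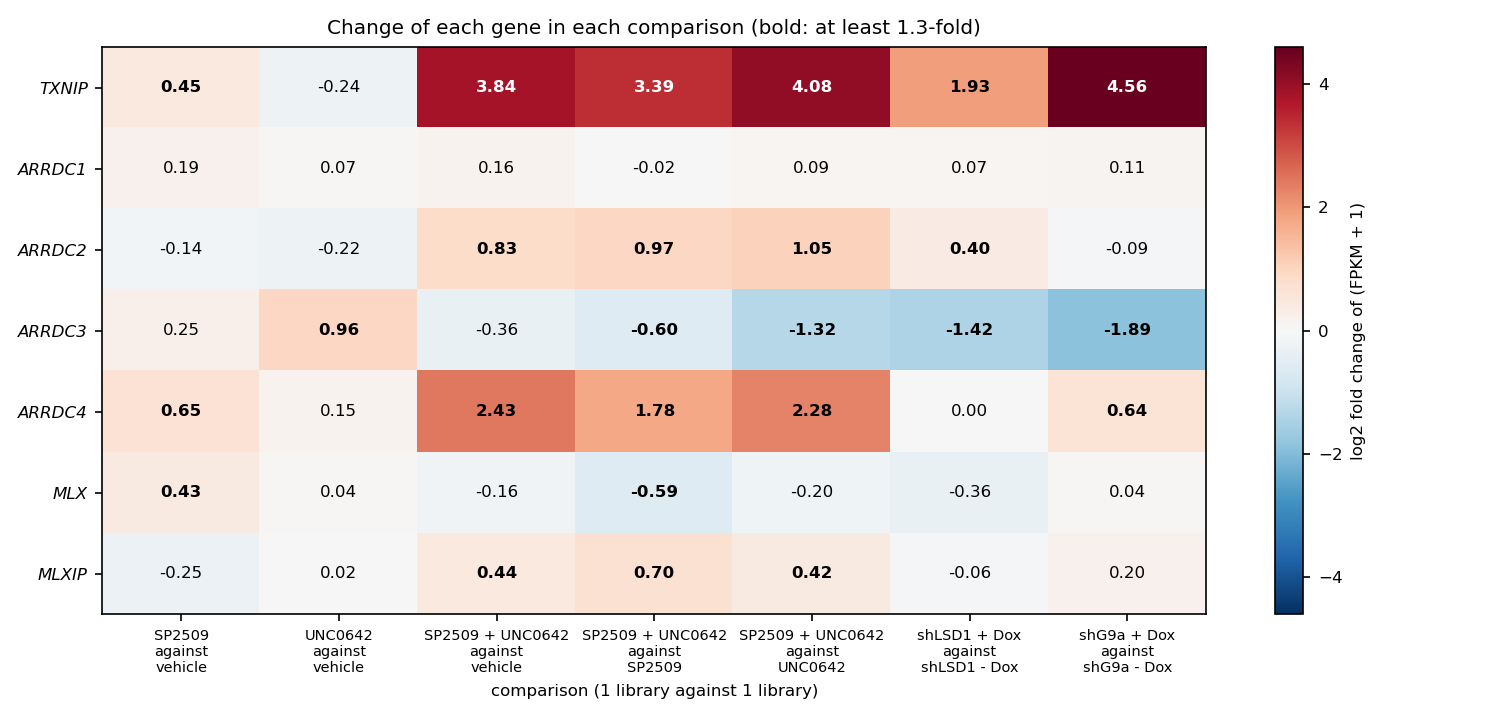
Change in log2(FPKM + 1) of each gene (rows) in each of 7 comparisons (columns), with red for higher and blue for lower in the treated library and bold type for changes of at least 1.3-fold. TXNIP ran from -0.24 with UNC0642 to 4.56 in shG9a cells with Dox, and ARRDC3 from 0.96 to -1.89 in the same 2 columns.

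The median gene itself shifted in several comparisons, and the changes of the 7 genes were also read relative to it. For genes that reached 5 FPKM in each library of a comparison, the median log2 ratio was 0.15 in shG9a cells, 0.12 in shLSD1 cells, 0.13 for the combination against SP2509 and -0.10 for SP2509 against vehicle. Relative to that median, TXNIP changed by 4.41 and ARRDC3 by -2.04 log2 units with Dox in shG9a cells, and by 1.81 and -1.54 with Dox in shLSD1 cells. The small values of ARRDC1 and MLX in shG9a cells changed sign on centring, from 0.11 to -0.04 and from 0.04 to -0.12.

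**Figure D4:**
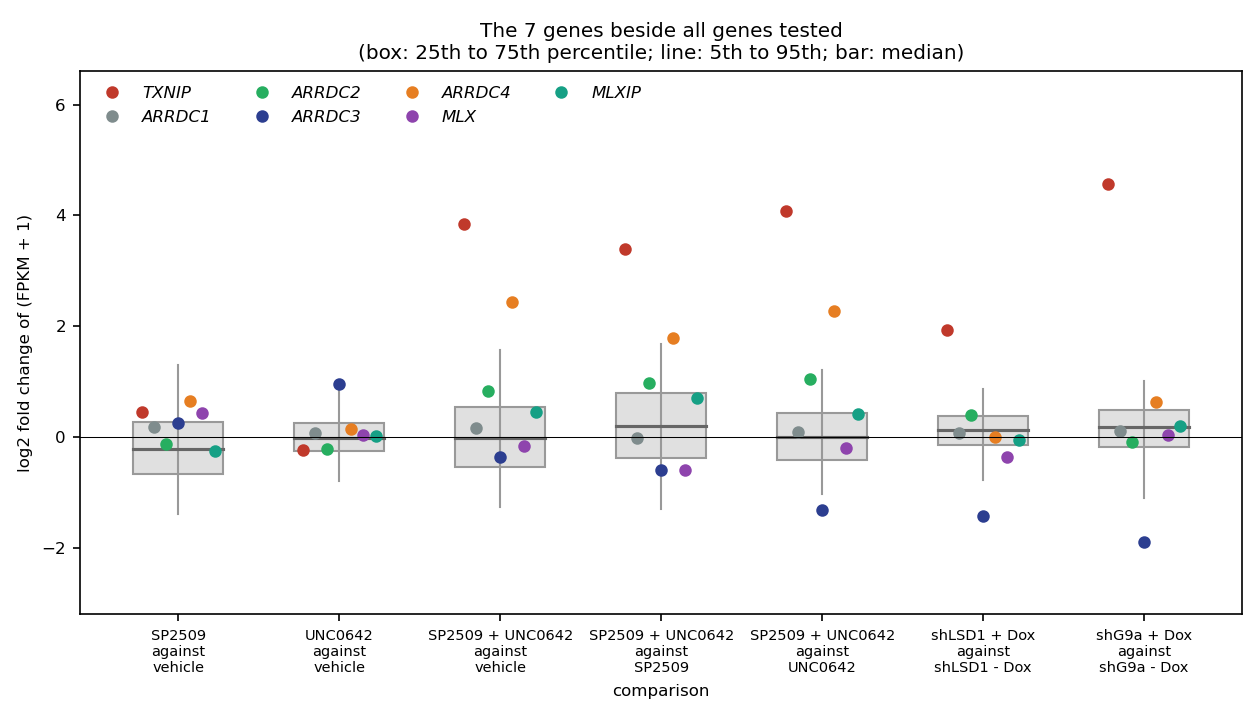
Change in log2(FPKM + 1) of the 7 genes (coloured points) beside all genes tested in each of 7 comparisons (grey box, 25th to 75th percentile; line, 5th to 95th percentile; bar, median). TXNIP lay above the 95th percentile in the 5 comparisons that involve the combination or Dox, and ARRDC3 lay below the 5th percentile in both lines with Dox and for the combination against UNC0642.

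The 2 inhibitors together changed TXNIP by far more than the sum of their separate changes. On the log2(FPKM + 1) scale the SP2509 and UNC0642 changes of TXNIP summed to 0.21, whereas the combination gave 3.84, a departure of 3.63. Of 14801 genes, 0.176% had a larger departure in that direction. The departure was 1.63 for ARRDC4, with 5.11% of genes larger, 1.19 for ARRDC2, with 11.6% larger, and 0.68 for MLXIP, with 27.9% larger. It was -0.09 for ARRDC1 and -0.63 for MLX. ARRDC3 departed in the opposite direction by -1.56, since its single changes summed to 1.20 and the combination gave -0.36. The departure has no replicate error and was not tested.

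**Figure D5:**
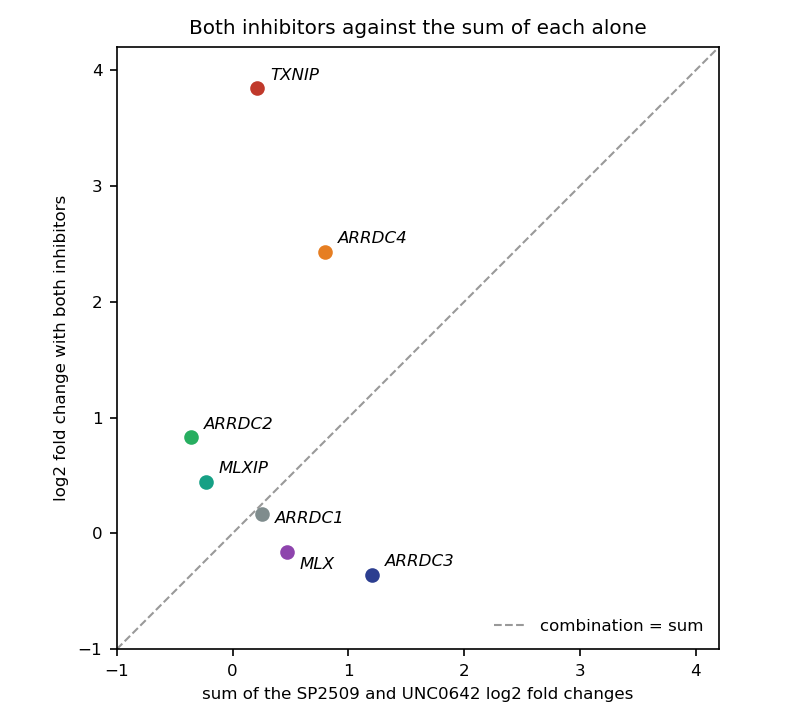
Change in log2(FPKM + 1) with both inhibitors (y axis) against the sum of the changes with SP2509 and UNC0642 alone (x axis) for the 7 genes, with the dashed line where they are equal. TXNIP stood 3.63 above the line, ARRDC4 1.63 above it, and ARRDC3 lay at -1.56 relative to it.

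Likeness to TXNIP was measured as the distance over the 5 log2 changes against each library's own control, among 10549 genes with at least 1 FPKM in at least 1 library of each table. The nearest protein-coding genes were BMF, a BH3-only proapoptotic gene (distance 2.86), MUC13, a membrane mucin (3.06), MARCKSL1 (3.34), MSX1, a homeobox gene (3.70), and DNAJA1, an HSP40 co-chaperone (3.76). BMF changed by 1.90 with both inhibitors, 1.66 in shLSD1 cells and 2.52 in shG9a cells, against 3.84, 1.93 and 4.56 for TXNIP. MUC13 changed by 1.02 with UNC0642 and 0.11 in shLSD1 cells, where TXNIP changed by -0.24 and 1.93. A near rank here thus means least distant, not alike in every comparison. ARRDC4 stood 64th in that order, at a distance of 4.61, and ARRDC3 10400th. In the reverse order, from ARRDC4, TXNIP stood 10255th of the 10549 genes at the same distance, so the 64th place is not a sign of likeness between them. The nearest genes to ARRDC4 were much closer to it, namely EHD1, an endocytic recycling gene (0.54), BTG2, an antiproliferative gene (0.61), HIST2H2AA3, a histone H2A gene whose near-identical copy may share its reads (0.67), ABTB2 (0.77) and DLX2, a homeobox gene (0.78). The 5 changes of each pair come from the same libraries, and the inhibitor changes share the vehicle library.

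The thioredoxin system, whose thioredoxin TXN is bound by TXNIP, held called changes in both directions. Of 17 genes, 13 were tested in each line, of which 5 rose and 1 fell in shLSD1 cells and 5 rose and 3 fell in shG9a cells, with medians of 0.06 and 0.08 beside 0.13 and 0.18 for all genes. Of all genes 24.8% were called up and 12.3% down in shLSD1 cells, and 32.9% and 17.6% in shG9a cells. With both inhibitors 4 of 14 tested rose and 5 fell, with a median of 0.02 beside -0.02 and with 31.4% of all genes called up and 31.7% down. NXN (nucleoredoxin) fell by 0.45 and 0.54 log2 units in the shLSD1 and shG9a lines and fell by 0.47 with the combination. TXNRD3, a thioredoxin reductase, rose by 0.50 and 0.39 in the lines and fell by 1.16 with the combination. MSRB2, a mitochondrial methionine sulfoxide reductase, rose by 0.43 in shLSD1 cells, fell by 0.46 in shG9a cells and fell by 1.21 with the combination. The 4 genes that rose with the combination were PRDX4 (0.90), TXNRD1 (0.75), PRDX1 (0.40) and TXNL1 (0.39). TXNRD1 rose by 0.68 in shLSD1 cells and fell by 0.62 in shG9a cells. PRDX3 rose by 0.78 in shG9a cells and fell by 0.61 with the combination. TXN itself, named after its values were seen, was at 480.7 FPKM in vehicle, 316 FPKM with SP2509, 463 FPKM with UNC0642 and 518.7 FPKM with both inhibitors. It was called down with SP2509 against vehicle (-0.60), where TXNIP was called up, and up for the combination against SP2509 (0.71). It was at 314 and 325 FPKM in shLSD1 cells and at 345 and 294 FPKM in shG9a cells without and with Dox, and neither change was called.

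Among genes of glucose uptake and glucose 6-phosphate metabolism, 10 were tested, and 5 fell in shLSD1 cells and 6 in shG9a cells, with 3 up in each. The list medians were -0.19 and -0.72, beside 0.13 and 0.18 for all genes, of which 24.8% were called up and 12.3% down in shLSD1 cells and 32.9% and 17.6% in shG9a cells. SLC2A1, which encodes GLUT1, was at 897.5 FPKM in the uninduced shLSD1 cells and 113.1 FPKM with Dox, and at 864 FPKM in the uninduced shG9a cells and 35.1 FPKM with Dox. These were log2 changes of -2.98 and -4.58. In the inhibitor table SLC2A1 was at 151 FPKM in vehicle, 331 FPKM with SP2509, 255 FPKM with UNC0642 and 158.9 FPKM with both. The high TXNIP library of the combination therefore had SLC2A1 near its vehicle level, with a log2 change of 0.08 that was not called, whereas the high TXNIP library of the shG9a line had a called decrease. HKDC1, a hexokinase-like gene, changed by 2.37 with the combination and by -0.52 and -1.10 in the lines. HK2, the inducible hexokinase that makes glucose 6-phosphate, was at 35.9 FPKM in vehicle and 136.2 FPKM with both inhibitors. It was also high with each compound alone, at 150.3 FPKM with SP2509 and 96.3 FPKM with UNC0642. Against SP2509 the combination changed HK2 by -0.14 log2 units, which was not called. HK2 was at 118.5 and 30.1 FPKM in shLSD1 cells without and with Dox, and at 113.7 and 13.0 FPKM in shG9a cells. With the combination 2 of the 10 genes rose and 3 fell, beside 31.4% and 31.7% of all genes, with a median of -0.18 beside -0.02.

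Of the genes other than the 7 known to respond to ChREBP or MondoA, most of those tested fell with both inhibitors against vehicle. The same genes fell with SP2509 alone, and TXNIP rose in both comparisons. The list median was above that of all genes in both lines with Dox, where TXNIP also rose. With both inhibitors 1 of 7 tested rose and 5 fell, with a median of -1.36 beside -0.02 for all genes, of which 31.4% were called up and 31.7% down. FASN, the fatty acid synthase, fell by 2.03, ACACA, an acetyl-CoA carboxylase, by 2.42 and ELOVL6, a fatty acid elongase, by 0.81 log2 units. With SP2509 alone their log2 changes were -2.75, -2.28 and -1.96. Against SP2509, where TXNIP rose 15.3-fold, the combination changed FASN by 0.72 and ELOVL6 by 1.15, both called up. ACACA changed by -0.15 there and was not called. In that comparison 2 of 7 tested rose and 3 fell, beside 41.8% and 24.8% of all genes. The median was -0.15 beside 0.20. In shLSD1 cells with Dox 3 of 6 tested rose and 1 fell, with a median of 0.51 beside 0.13 for all genes, of which 24.8% were called up and 12.3% down. In shG9a cells with Dox 4 of 6 rose and 2 fell, with a median of 0.55 beside 0.18, where 32.9% of all genes were called up and 17.6% down. FASN rose by 0.89 and 1.35, ACACA by 1.08 and 0.90, and ELOVL6 by 0.68 and 0.63. KLF10, a Krüppel-like transcription factor named after its values were seen, went the other way against vehicle and against the uninduced lines. It rose by 1.42 with both inhibitors and fell by 0.95 and 0.66 log2 units in the shLSD1 and shG9a lines. KLF10 was at 7.42 FPKM in vehicle, 32.8 FPKM with SP2509, 11.6 FPKM with UNC0642 and 21.6 FPKM with both inhibitors. Against SP2509 alone the combination thus had a called decrease of KLF10, at -0.58 log2 units. With SP2509 alone 1 of 7 rose and 5 fell, beside 21.0% and 39.9% of all genes, and with UNC0642 alone 1 rose and 1 fell, beside 18.2% and 16.9%. The medians were -1.03 beside -0.21 and -0.18 beside -0.01.

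In the MYC, MAX and MLX network, 6 of 8 tested genes rose and 0 fell with both inhibitors, beside 31.4% of all genes up and 31.7% down, with a median of 0.47 beside -0.02. In each line with Dox 2 of 9 rose and 3 fell, beside 24.8% up and 12.3% down in shLSD1 cells and 32.9% and 17.6% in shG9a cells. The medians there were 0.06 beside 0.13 and 0.20 beside 0.18. MXD1, a repressor that pairs with MAX or MLX, was at 6.19 FPKM in vehicle and 49.1 FPKM with both inhibitors, but at 18.6 FPKM in the uninduced shG9a cells and 1.31 FPKM with Dox. MYC was at 136.5 FPKM in vehicle, 697 FPKM with SP2509 and 182 FPKM with both, and it fell by 1.06 and 1.60 log2 units in the shLSD1 and shG9a lines. Of the NEDD4 family ligases that alpha-arrestins recruit, 7 were tested. ITCH, which ubiquitylates TXNIP, was at 22.9 FPKM in the uninduced shG9a cells and 7.56 FPKM with Dox, and it fell by 0.69 log2 units in shLSD1 cells. It was at 26.3 FPKM in vehicle and 27.6 FPKM with both inhibitors, and at 44.3 and 42.6 FPKM with SP2509 and UNC0642 alone. NEDD4L was at 4.23 FPKM in vehicle and 8.54 FPKM with SP2509, and NEDD4 was at 7.41 and 3.92 FPKM in those libraries. In all, 2 of the 7 ligases rose and 2 fell in shG9a cells, 0 rose and 2 fell in shLSD1 cells, and 1 rose and 2 fell with the combination, with medians of 0.32, 0.10 and -0.17. These counts are few, beside the shares of all genes just given, and nothing is read from them about the ligases as a group.

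Among binding partners and cargo of alpha-arrestins, 9 to 11 were tested, of which 2 rose and 4 fell with the combination, 3 rose and 3 fell in shLSD1 cells, and 1 rose and 5 fell in shG9a cells. Of all genes 31.4%, 24.8% and 32.9% were called up and 31.7%, 12.3% and 17.6% down in those comparisons. The list medians were -0.14, 0.05 and -0.35, beside -0.02, 0.13 and 0.18. DDIT4 (REDD1), a stress-induced inhibitor of mTORC1 that binds TXNIP, was at 136.1 FPKM in vehicle and 53.7 FPKM with both inhibitors. It was at 417 and 136.5 FPKM in shLSD1 cells without and with Dox and at 459 and 73.4 FPKM in shG9a cells, and all 3 changes were called. DDIT4 was named after its values were seen. ITGB4, the integrin bound by ARRDC3, was at 57.7 FPKM in vehicle, 174 FPKM with SP2509 and 28.7 FPKM with both inhibitors, and fell by 0.46 log2 units in shG9a cells. MAP3K5 (ASK1), a kinase held inactive by thioredoxin, was at 10.2 FPKM in vehicle and 2.26 FPKM with both inhibitors, and rose by 0.39 and 0.62 in the shLSD1 and shG9a lines. Among the classical arrestins, ARRB2 was at 12.6 FPKM in vehicle and 18.5 FPKM with both inhibitors and was not called in the lines, and ARRB1 passed the filter in shLSD1 cells alone, at 0.62 and 1.41 FPKM.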

How the data were processed

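The authors sequenced total RNA as paired ends of 150 bases and deposited FPKM values in 2 tables, of 31582 genes (inhibitors) and 28942 genes (knockdowns), normalised separately. Per the labels' processing notes the build was GRCh38. The aligner, the counter and the strand setting are not given in the sources used here. Samples were grouped by their labels. The 7 genes and the gene lists were chosen with earlier results of these data known.

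Fold changes used a pseudocount of 1 FPKM, with at least 1 FPKM in at least 1 of the 2 libraries, and a call was a change of at least 1.3-fold. With 1 library per group no test was run. Whole reads were recovered from the FPKM steps of 1-exon genes (100% of their values near a whole number), which gave each library total. A single length gave whole reads, within 0.005 reads, for each of the 7 genes in all 8 libraries. That length differed from the GENCODE v44 exon length by 0 to 51 bases. Intervals are exact Poisson for levels and exact binomial for ratios, at 95%, and cover counting error only. In simulated libraries, reads were recovered exactly for 2886 of 3000 genes. For the simulated comparison of SP2509 with vehicle, 200 of 200 changed genes and 294 of 11736 unchanged genes were called. The simulation held counting error only, and its planted changes were all 2-fold, in genes with at least 5 FPKM in vehicle. It cannot give the rate of false or missed calls between real libraries, near a fold of 1.3, or for genes low in the control. Promoters came from RefSeq (GRCh38.p14). All 7 genes matched there, and the first listed start site is shown. Named genes were the 7 genes, ARRDC5, MLXIPL, KDM1A, EHMT2, the cell type markers, and the 5 genes nearest to TXNIP and to ARRDC4. At most 3 genes of each list that made its largest change in a comparison were named too. TXN, KLF10, DDIT4, further genes of the thioredoxin system, and P4HA1, GFPT1 and KCTD5 were named outside this rule. Alternatives were a pseudocount of 0.1 FPKM, centring on the median ratio, no filter, a minimum of 5 FPKM, a fold of 2, a counting interval that leaves out 1, and the mean of both uninduced libraries as control. Python 3.11.15, numpy 2.4.6, pandas 2.3.3 and scipy 1.17.1 were used.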

Additional observations from a re-analysis of the deposited data

Results flagged for a closer look

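ARRDC3 was called in opposite directions after UNC0642 and after knockdown of the same enzyme. Its log2 change was 0.96 with UNC0642 against vehicle and -1.89 in shG9a cells with Dox against the uninduced line. The difference was not tested, since each side rests on 1 library against 1 library. The starting levels also differed, at 15.1 FPKM in vehicle and 55.7 FPKM in the uninduced shG9a cells, in tables that were normalised separately. TXNIP in the same libraries was 0.848 FPKM with UNC0642 and 48.9 FPKM in shG9a cells with Dox.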

How the results depend on the processing

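No paired analysis was possible because each group held 1 library. No replicate could be left out for the same reason. The log2 change of TXNIP kept its direction in all 7 comparisons with a pseudocount of 0.1 FPKM and with centring, and in both lines against the mean of the uninduced libraries. With a minimum of 5 FPKM it was not tested with SP2509 or UNC0642. With a pseudocount of 0.1 FPKM its log2 change grew to 4.57 for the combination against vehicle, 3.87 against SP2509, 5.0 against UNC0642, 2.54 in shLSD1 cells and 5.33 in shG9a cells, as a smaller pseudocount raises the change of a gene that is low in the control. The same pseudocount called 2 of the 7 genes with UNC0642 (TXNIP and ARRDC3) in place of 1. With a fold of at least 2, the 7 genes gave 0 calls with SP2509, 0 with UNC0642, and 2 (TXNIP and ARRDC4) for the combination against vehicle and against SP2509. All genes called were then 2837 with SP2509, 1047 with UNC0642, 3142, 3705 and 1827 for the combination against vehicle, SP2509 and UNC0642, 860 in shLSD1 cells and 1459 in shG9a cells. With a minimum of 5 FPKM, 1 of the 7 (MLX) was called with SP2509, and all genes called were 4450, 2391, 5003, 5011, 4209, 2739 and 3842 in that order. The main counts were 8125, 4652, 8783, 9100, 7477, 4818 and 6603. Centring moved the share of calls that were increases from 66.8% to 49.1% in shLSD1 cells and from 65.2% to 48.5% in shG9a cells. For the other 6 genes, 81 of 96 values under an alternative stayed within the counting interval of the reported one, 15 moved beyond it, and 0 called values changed sign. Depth limited TXNIP in the 3 controls, with 67 to 74 reads, and with UNC0642, with 55 reads.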

Other observations

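Set across the 2 tables, which were normalised separately, the uninduced lines differed from vehicle-treated cells in several of the genes that moved with Dox. ARRDC3 was at 15.1 FPKM in vehicle and at 52.1 and 55.7 FPKM in the uninduced shLSD1 and shG9a lines. SLC2A1 was at 151 FPKM in vehicle and at 897.5 and 864 FPKM in the uninduced lines. MXD1 was at 6.19 FPKM in vehicle and at 19.5 and 18.6 FPKM, and MLXIPL was at 2.52 FPKM in vehicle and at 7.99 and 7.17 FPKM. TXNIP, at 1.18, 1.15 and 1.12 FPKM, was near the same level in all 3 controls. Culture conditions, table normalisation and the stable lines cannot be told apart here.

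The 16 genes whose RefSeq promoters held the paired motif, a set defined after the data were seen, included genes called up and genes called down. Of 14 listed in each table, 9 were tested for the combination against vehicle, of which 4 were called up and 2 down, beside 31.4% and 31.7% of all genes, and 10 were tested in shG9a cells, of which 4 were called up and 2 down, beside 32.9% and 17.6%. In the shLSD1 line 1 was called up, which was TXNIP, and 2 down, beside 24.8% and 12.3%. Nothing is read from these counts about the set. P4HA1, a collagen prolyl hydroxylase, changed by 1.60 with both inhibitors and by -1.80 and -2.80 in the shLSD1 and shG9a lines. GFPT1, the entry enzyme of the hexosamine pathway, changed by -0.50, -0.38 and -1.23 in the same comparisons. With SP2509 and UNC0642 alone, P4HA1 changed by 1.86 and 0.99 and GFPT1 by -2.01 and -1.11. KCTD5 changed by 1.5 with both inhibitors and by -0.03 in shG9a cells.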
